A study of Saccharomyces cerevisiae with 6 samples.

Results

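The 10 genes described here encode the enzymes and carriers of peroxisomal fatty acid beta-oxidation in Saccharomyces cerevisiae. They were picked by locus name for their known place in this pathway from a table of 10239 loci, of which 6558 are protein-coding. POX1 (YGL205W), FOX2 (YKR009C) and POT1 (YIL160C) encode the enzymes of the oxidation cycle. FAA2 (YER015W), PXA1 (YPL147W) and PXA2 (YKL188C) encode the proteins that bring fatty acids into it, and IDP3 (YNL009W), ECI1 (YLR284C), SPS19 (YNL202W) and TES1 (YJR019C) encode auxiliary enzymes. RNA was sequenced from aerial cells and root cells of 3-day-old biofilm colonies of BR-F, a wild diploid strain, with 3 libraries per cell type. The cell types share strain, age and medium, in which glycerol was the carbon source, and no fatty acid is named in that medium. Colonies grew on a porous membrane laid on the agar. Aerial cells are those above the membrane, root cells are those that had grown through it into the agar, and each sample pooled the cells of many colonies. Per the paper's methods, aerial parts were frozen at once. Root cells were mixed, vortexed and centrifuged out of the agar before freezing and kept traces of it. This handling went with the cell type, so the effects of handling and cell type cannot be told apart. The study compared the cell types to learn how the metabolism of surface and invasive cells differs.

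In yeast, beta-oxidation takes place in the peroxisome alone. Fatty acids enter either as CoA esters through the transporter built from Pxa1p and Pxa2p or as free acids that Faa2p activates inside, and the cycle of Pox1p, Fox2p and Pot1p then shortens the chain and releases acetyl-CoA. The first step yields hydrogen peroxide, and unsaturated chains need the auxiliary enzymes. The genes are known to be repressed by glucose, and during growth on oleate they are induced by the heterodimer of Oaf1p and Pip2p, which binds the oleate response element, together with Adr1p.

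The oleate response element was searched for in the 500 bases before each start codon, on both strands of R64, as CGGNNNTNA followed by 9 to 12 bases of any kind and CCG. It was found upstream of 9 of the 10 genes, all but PXA1, against 113 of 6000 promoters of the same length (1.88%), the 9 included. The genes are known targets of the factors that bind this element, so the matches are no independent finding. The matches are shown because they are the feature that 9 of these genes share in sequence and that few other promoters have. Letters are those of the R64 reference genome, and the promoters of BR-F were not examined and may differ. The matches are printed in the direction of the gene with 10 flanking bases on each side, and capitals mark the match. That of POX1 nearer to the start codon and that of POT1 match on both strands.
POX1, chrVII:107836-107878, plus strand: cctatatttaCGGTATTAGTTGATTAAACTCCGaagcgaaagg
POX1, chrVII:107873-107915, plus strand: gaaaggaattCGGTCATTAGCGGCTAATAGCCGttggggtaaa
FOX2, chrXI:457327-457368, minus strand: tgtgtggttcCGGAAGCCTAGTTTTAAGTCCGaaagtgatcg
FOX2, chrXI:457295-457335, minus strand: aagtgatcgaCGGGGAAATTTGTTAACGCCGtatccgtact
POT1, chrIX:41600-41642, minus strand: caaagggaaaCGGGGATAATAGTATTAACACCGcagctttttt
FAA2, chrV:184345-184387, plus strand: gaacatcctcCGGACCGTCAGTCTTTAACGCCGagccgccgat
PXA2, chrXI:89025-89068, minus strand: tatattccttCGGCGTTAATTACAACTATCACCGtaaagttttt
IDP3, chrXIV:614499-614541, plus strand: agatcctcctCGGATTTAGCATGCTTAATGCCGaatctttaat
ECI1, chrXII:707181-707223, minus strand: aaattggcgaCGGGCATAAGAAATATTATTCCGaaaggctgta
SPS19, chrXIV:259402-259445, plus strand: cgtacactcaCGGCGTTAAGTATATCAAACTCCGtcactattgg
TES1, chrX:468379-468421, minus strand: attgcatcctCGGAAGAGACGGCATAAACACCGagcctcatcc

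Adr1 elements, searched as TTGGAG or TTGGGG on both strands, were found upstream of 9 of the 10 genes, all but PXA2, and in 26.2% of all promoters. In PXA1, where no oleate response element was matched, an Adr1 element lay 130 to 135 bases before the start codon on the opposite strand, shown here as the only match of that promoter.
PXA1, chrXVI:273110-273135, plus strand: cccttttttaCCCCAAtttttaattt
The stress response element CCCCT was found upstream of POX1, IDP3 and SPS19, in 3 of 10 genes against 34.1% of all promoters. No match of any of these motifs overlapped a match of another in the 10 promoters. A match describes letters only, and whether a factor was bound there was not measured.

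**Figure D1:**
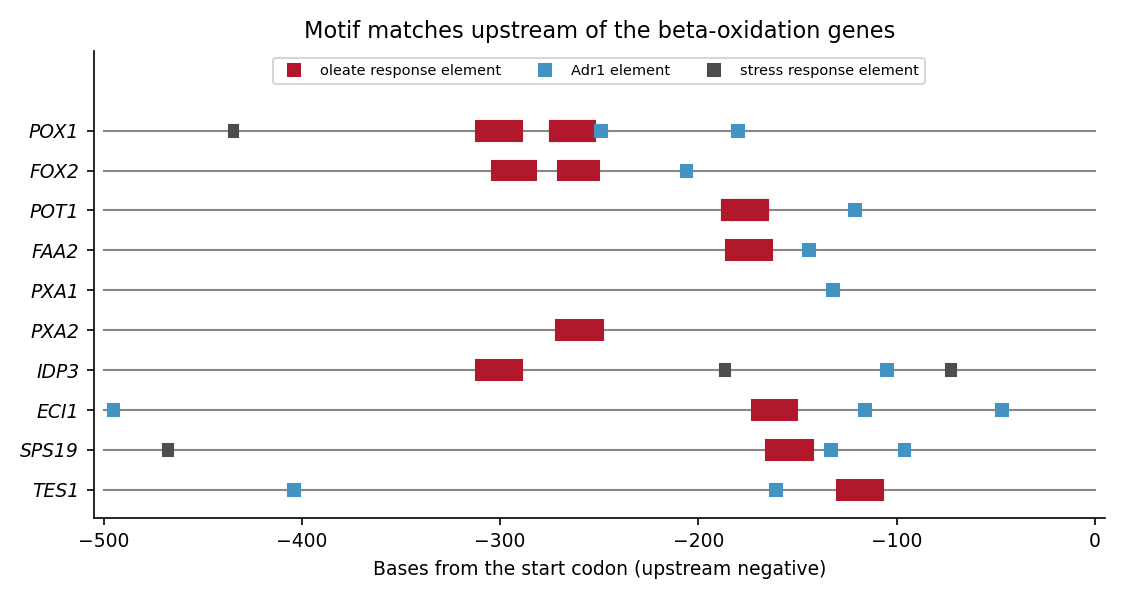
Motif matches in the 500 bases before the start codon of the 10 beta-oxidation genes, in bases from the start codon with the gene reading to the right. Oleate response elements (large red boxes) lie between 108 and 312 bases from the start codon in the 9 genes that have one. Adr1 elements (blue) are missing in PXA2, and stress response elements (grey) are found in POX1, IDP3 and SPS19.

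Strand-specific counts summed to between 13764726 and 17095539 per library. CPM values relate the read count to the size of its library after scaling by TMM factors of 0.871 to 1.09. Differences are log2 fold changes of root over aerial cells with their standard error (SE), and negative ones mean more transcript in aerial cells. A locus passed if edgeR's quasi-likelihood test gave it an adjusted p under 0.05 (Benjamini-Hochberg over 7971 loci). It was called if it also changed at least 2-fold. Of the 7971 loci, 5873 were protein-coding, so shares of all loci include non-coding ones. Aerial libraries differed among themselves more than root libraries did, with a chi-square per degree of freedom of 134 to 337 for pairs of aerial and 27.5 to 42.4 for pairs of root libraries. The largest value was that of aerial replicates 1 and 2, and results that turned on aerial replicate 2 are given below with and without it. Aerial replicate 1 had the TMM factor of 0.871, against 1.09 and 1.08 in aerial replicates 2 and 3. Its share of counts outside protein-coding loci was 8.18%, against 2.52% and 4.22%. In bulk RNA, fewer cells with a transcript and less of it per cell cannot be told apart.

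The pathway was higher in aerial cells. Of the 10 genes, 9 passed the test and all of these were higher in aerial cells, against 15.6% of all loci tested, while 0 of the 10 passed as higher in root cells, against 15.9%. At least 2-fold, 8 were called, against 9.20% of all loci, and for 9 no aerial library overlapped a root library, against 23.4% of all loci. The median log2 fold change of the 10 genes was -1.47, and that of all loci tested was -0.03. FOX2, POX1, FAA2, POT1, IDP3, PXA1 and PXA2 are named in the paper as changed from these same libraries, so the 7 are no independent evidence of the direction. ECI1, SPS19 and TES1 are not named in the text of the paper. All 10 genes passed the filter on low counts, and the smallest count of any of them was 457 reads, for ECI1 in root replicate 2. The number that passed was 7 without root replicate 2, 8 without aerial replicate 1, aerial replicate 3, root replicate 1 or root replicate 3, and 10 without aerial replicate 2.

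**Figure D2:**
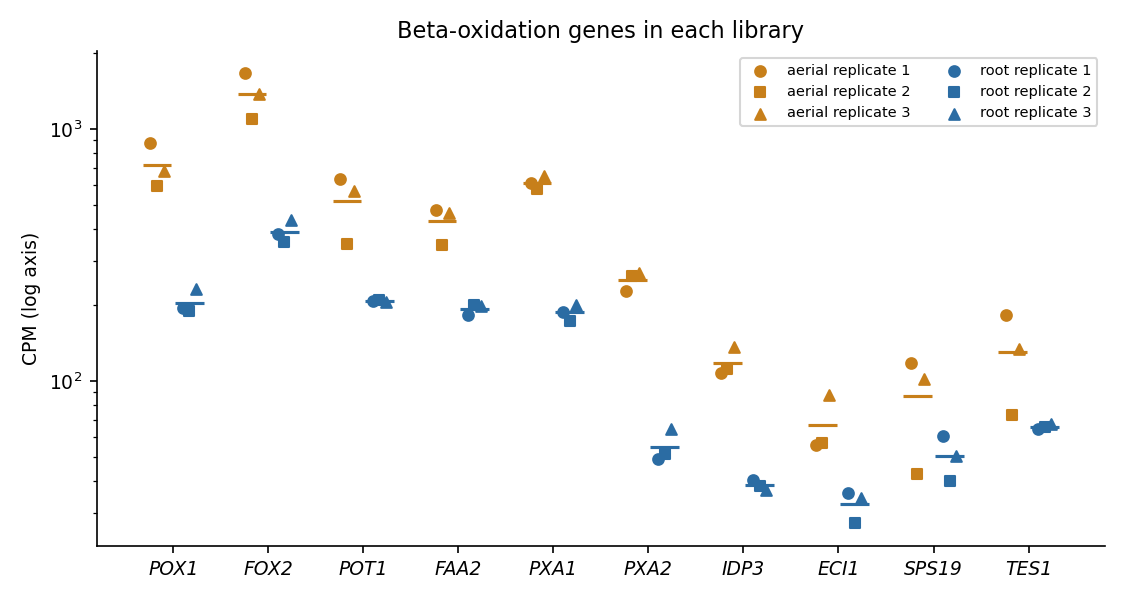
CPM of the 10 genes in each library on a log axis, with aerial libraries in orange, root libraries in blue, a marker shape for each replicate and a line at the mean of each cell type. The aerial and root points are apart for every gene but SPS19, where aerial replicate 2 (42.7 CPM) lies among the root libraries, and in TES1 the gap narrows to that between 73.2 and 67.1 CPM.

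The cycle itself begins with POX1 (chromosome VII, 108158 to 110404), the acyl-CoA oxidase, which makes the hydrogen peroxide. Its level was 876, 593 and 680 CPM in aerial replicates 1, 2 and 3 and 194, 188 and 231 CPM in root replicates 1, 2 and 3. Every aerial library was well above every root library. The means were 716 ± 145 CPM (SD, n = 3) and 204 ± 23.1 CPM, a log2 fold change of -1.81 (SE 0.23, adjusted p = 0.00114, edgeR) or 3.51-fold. FOX2 (chromosome XI, 454352 to 457054), whose product is both the hydratase and the dehydrogenase of the cycle, was the most abundant of the genes in CPM. It stood at 1661, 1093 and 1374 CPM in the aerial and at 382, 357 and 434 CPM in the root libraries. Its groups were as far apart as those of POX1, with a log2 fold change of -1.82 (SE 0.24, adjusted p = 0.00138, edgeR).

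POT1 (chromosome IX, 40191 to 41444), the ketoacyl-CoA thiolase that releases acetyl-CoA, moved less. Its aerial libraries held 633, 349 and 566 CPM and its root libraries 208, 210 and 205 CPM. The root libraries were nearly equal, and aerial replicate 2 was the lowest aerial library by far. The means of 516 ± 149 CPM and 207 ± 2.55 CPM (SD, n = 3) gave a log2 fold change of -1.31 (SE 0.25, adjusted p = 0.00528, edgeR) or 2.49-fold.

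Of the genes for entry into the pathway, PXA2 (chromosome XI, 86225 to 88786) had the lowest log2 fold change of the 10 genes. Its product pairs with Pxa1p in the membrane of the peroxisome as an ABC transporter of long-chain acyl-CoA. Aerial libraries held 228, 260 and 269 CPM and root libraries 48.7, 51.3 and 64.3 CPM, and unlike POX1, FOX2 and POT1 the level was lowest in aerial replicate 1. The log2 fold change was -2.20 (SE 0.20, adjusted p = 0.000444, edgeR), or 4.60-fold. PXA1 (chromosome XVI, 273255 to 275867) held 608, 576 and 648 CPM in the aerial and 187, 173 and 200 CPM in the root libraries. It was the steadiest of the 10 among aerial libraries, at 611 ± 36.0 CPM (SD, n = 3), and its log2 fold change was -1.71 (SE 0.19, adjusted p = 0.000849, edgeR).

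Per kilobase of coding sequence, PXA1 was above PXA2 in all 6 libraries. The ratio of PXA1 to PXA2 was 2.61, 2.17 and 2.37 in the aerial and 3.76, 3.30 and 3.06 in the root libraries. The subunit genes were thus closer to each other in aerial cells, where the ratio was 2.38 ± 0.219 (SD, n = 3), than in root cells, where it was 3.37 ± 0.357, with no overlap. This ratio was looked at after the values had been seen and was given no test.

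FAA2 (chromosome V, 184541 to 186775), the medium-chain acyl-CoA synthetase inside the peroxisome, was at 478, 346 and 463 CPM in the aerial and at 182, 200 and 197 CPM in the root libraries. The groups did not overlap, and the log2 fold change was -1.15 (SE 0.20, adjusted p = 0.00391, edgeR). It was the smallest of the changes at the entry of the pathway. BUD25, which overlaps FAA2 by 160 bases on the other strand, held 1 to 5 counts per library.

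Among the auxiliary genes, IDP3 (chromosome XIV, 614821 to 616083), the peroxisomal isocitrate dehydrogenase that supplies NADPH for the reduction of unsaturated chains, held 107, 111 and 136 CPM in the aerial and 40.4, 38.1 and 36.8 CPM in the root libraries. Replicates were close in both cell types, and the log2 fold change was -1.62 (SE 0.17, adjusted p = 0.000686, edgeR). ECI1 (chromosome XII, 706198 to 707040), an enoyl-CoA isomerase that moves a misplaced double bond, was at 55.8, 56.4 and 88.2 CPM in the aerial and at 36.0, 27.2 and 34.3 CPM in the root libraries. Aerial replicate 3 stood above the other aerial libraries. Its log2 fold change was -1.04 (SE 0.23, adjusted p = 0.00977, edgeR), and the adjusted p was 0.0649 without root replicate 2.

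SPS19 (chromosome XIV, 259578 to 260456), the dienoyl-CoA reductase that uses this NADPH, was the exception. It was at 118, 42.7 and 101 CPM in the aerial and at 60.1, 39.98 and 50.1 CPM in the root libraries. Aerial replicate 2 fell within the range of the root libraries, and the other aerial libraries stood above all of them. The log2 fold change was -0.80 (SE 0.34, adjusted p = 0.107, edgeR), and without aerial replicate 2 it was -1.13 with an adjusted p of 0.00227. TES1 (chromosome X, 467232 to 468281), an acyl-CoA thioesterase, spread in the same way, with 182, 73.2 and 133 CPM in the aerial and 64.3, 65.8 and 67.1 CPM in the root libraries. The lowest aerial library was 73.2 CPM, close to the highest root library. TES1 passed with a log2 fold change of -0.98 (SE 0.29, adjusted p = 0.0335, edgeR) but did not reach 2-fold. Its adjusted p was 0.0693 without aerial replicate 1, 0.0884 without aerial replicate 3 and 0.108, 0.117 and 0.113 without root replicates 1, 2 and 3. A transcript annotated antisense to TES1 held 1 to 2 counts per library and was not tested.

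**Figure D3:**
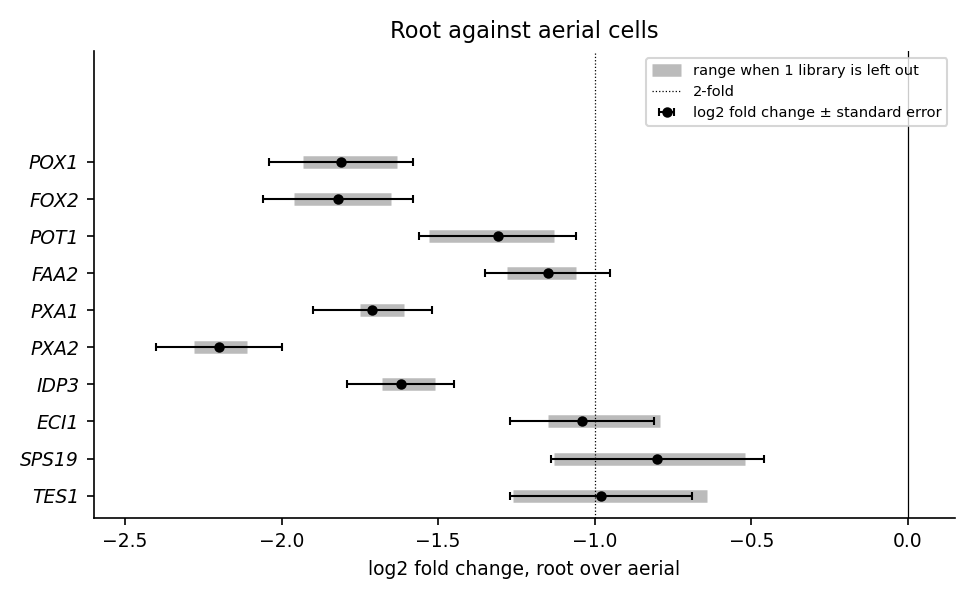
Log2 fold change of root over aerial cells for the 10 genes (points) with the standard error of edgeR's fit (bars) and the range over the fits that each left out 1 of the 6 libraries (grey bands). PXA2 at -2.20 has the lowest value, SPS19 at -0.80 the highest, and every band lies below 0.

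Summed over the 10 genes, the pathway took 4948, 3501 and 4459 CPM in aerial replicates 1, 2 and 3 and 1403, 1350 and 1520 CPM in root replicates 1, 2 and 3. The root libraries were close together and aerial replicate 2 was the lowest aerial library. The mean sum was 4303 ± 736 CPM in aerial cells and 1424 ± 86.9 CPM in root cells (SD, n = 3), which is a ratio of 3.02. As a share of all counts the pathway took 0.381% to 0.480% of the aerial and 0.134% to 0.152% of the root libraries.

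The genes did not fall to the same extent. The share of each gene in the summed counts per kilobase of the 10 genes does not depend on library size or scaling. FOX2 took 23.6% ± 1.13 (SD, n = 3) of the pathway in aerial and 18.8% ± 0.952 in root libraries, POX1 14.8% ± 1.31 and 11.81% ± 0.809, and PXA2 4.71% ± 1.21 and 2.78% ± 0.320. These were the genes whose share was larger in aerial cells without overlap between the cell types. The share was larger in root cells for POT1 (18.8% ± 2.09 in aerial and 21.6% ± 1.36 in root libraries), FAA2 (8.93% ± 0.329 and 11.3% ± 0.868), SPS19 (4.43% ± 1.36 and 7.40% ± 1.36) and TES1 (5.54% ± 1.41 and 8.16% ± 0.381). The shares of PXA1, IDP3 and ECI1 overlapped between the cell types, and those of the genes above did not. The shares of the 10 genes sum to a fixed total and are given as a description.

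**Figure D4:**
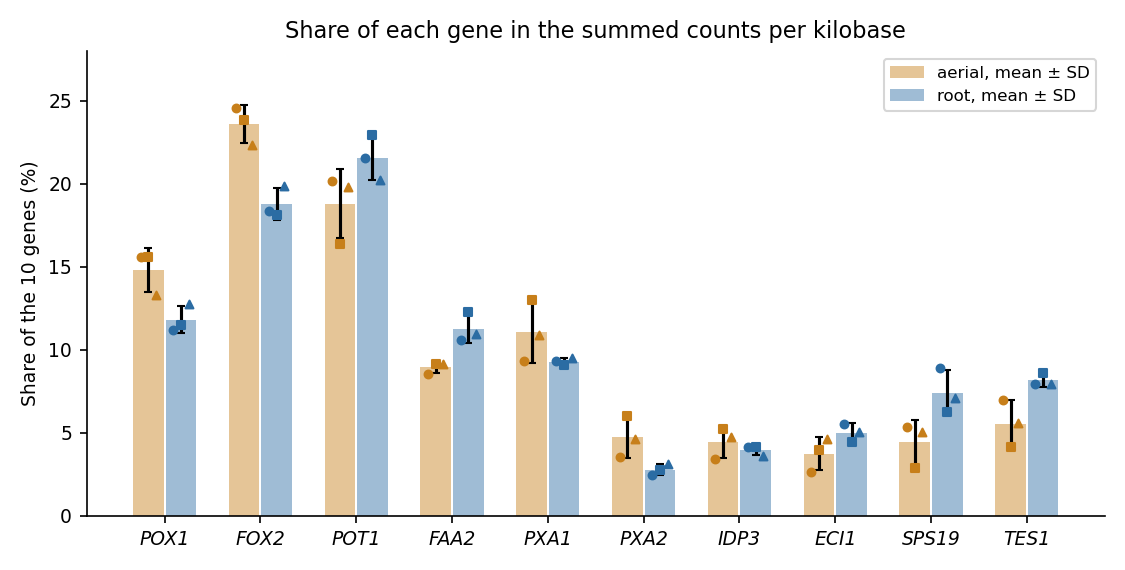
Share of each gene in the summed counts per kilobase of the 10 genes, in percent, as mean ± SD over 3 libraries (bars) with the libraries as points (circle, square and triangle for replicates 1, 2 and 3). FOX2 takes 23.6% in aerial and 18.8% in root libraries, while POT1 takes 18.8% and 21.6%, so that their order turns.

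In CPM per kilobase of coding sequence FOX2 led in aerial cells at 509 ± 105 (SD, n = 3), followed by POT1 at 411 ± 119 and POX1 at 319 ± 64.6. FOX2 was above POT1 in each of the 3 aerial libraries, although the ranges over libraries overlapped. In root cells the order was turned, with POT1 at 165 ± 2.04 and FOX2 at 145 ± 14.5 CPM per kilobase, and POT1 was above FOX2 in each of the 3 root libraries without overlap. POX1 again came after them, at 90.9 ± 10.3, and its range overlapped that of FAA2 at 86.4 ± 4.17. The lower end of the order also changed. In aerial cells TES1 (123 ± 52.1), SPS19 (99.3 ± 44.8), PXA2 (98.5 ± 8.33), IDP3 (93.5 ± 12.1) and ECI1 (79.2 ± 22.0) each overlapped the next in range, although TES1 was above SPS19 and IDP3 above ECI1 in each of the 3 aerial libraries. Between them and POX1 lay PXA1 (234 ± 13.8) and FAA2 (192 ± 32.4), which did not overlap each other. In root cells PXA2 was the lowest gene at 21.4 ± 3.26 CPM per kilobase, below IDP3 at 30.4 ± 1.43 and ECI1 at 38.6 ± 5.51, with no overlap between these neighbours.

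Several of the enzymes have counterparts outside the peroxisome, and these did not move as a group. Of 6 such isoenzyme genes 1 passed as higher in aerial and 2 as higher in root cells, with a median log2 fold change of 0.14. Among the acyl-CoA synthetases FAA1, whose product activates imported long-chain fatty acids, had a log2 fold change of -0.73 (SE 0.20, adjusted p = 0.0206, edgeR), FAA3 of 0.58 (adjusted p = 0.0387) and FAA4 of 0.28 (adjusted p = 0.329). FAA1 stood at 340 ± 30.3 and FAA4 at 334 CPM per kilobase in aerial cells, above FAA2 at 192 ± 32.4. FAA1 and FAA3 each no longer passed when root replicate 1, 2 or 3 was left out. FAA3 also did not pass without aerial replicate 3 and with no filter. Among the NADP-dependent isocitrate dehydrogenases, IDP3 fell in root cells, while the mitochondrial IDP1 rose (0.95, standard error 0.19, adjusted p = 0.00679) and the cytosolic IDP2 stood at 0.00 (SE 0.19, adjusted p = 0.998). IDP2 was at 330 ± 28.0 and 331 ± 25.6 CPM per kilobase in aerial and root libraries (SD, n = 3). ERG10, the cytosolic acetoacetyl-CoA thiolase, had a log2 fold change of -0.57 (SE 0.24, adjusted p = 0.101), and of -0.78 with an adjusted p of 0.00672 without aerial replicate 2.

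Of 11 further peroxisomal enzymes and carriers, 3 passed as higher in aerial cells and 2 as higher in root cells. The median log2 fold change was -0.51. CTA1, the peroxisomal catalase that removes the hydrogen peroxide of the Pox1p reaction, had 1490.1, 777 and 1411 CPM in the aerial and 538, 394 and 534 CPM in the root libraries, with no overlap and a log2 fold change of -1.33 (SE 0.30, adjusted p = 0.0106, edgeR). Its adjusted p was 0.0642 without root replicate 2. GTO1, a glutathione transferase, was at -1.09 (SE 0.17, adjusted p = 0.00245) and PNC1, the nicotinamidase, at -0.93 (SE 0.27, adjusted p = 0.0308). In the other direction went PCS60, an oxalyl-CoA synthetase, at 1.24 (SE 0.22, adjusted p = 0.00399) and ANT1, the carrier that brings ATP into the peroxisome, where Faa2p needs it, at 1.05 (SE 0.19, adjusted p = 0.00391). ANT1 had 64.4, 47.7 and 53.9 CPM in the aerial and 123, 122 and 99.0 CPM in the root libraries, again without overlap. DCI1, the paralogue of ECI1, was at -0.59 (SE 0.22, adjusted p = 0.0667), and at -0.78 with an adjusted p of 0.00374 without aerial replicate 2. PNC1 no longer passed when aerial replicate 3 or any of the root replicates was left out. Without aerial replicate 2, 6 of the 11 genes passed as higher in aerial cells, and without root replicate 2 the count was 1, GTO1.

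Among 6 genes for regulators, 3 passed as higher in aerial cells and 0 as higher in root cells, and none was called at 2-fold. The median was -0.45. CAT8, an activator of genes for non-fermentable carbon sources, was at -0.99 (SE 0.21, adjusted p = 0.00773, edgeR). PIP2 was at -0.62 (SE 0.19, adjusted p = 0.0317) and OAF1 at -0.56 (SE 0.19, adjusted p = 0.0495). Both no longer passed when aerial replicate 1 or any of the root replicates was left out. OAF1 also did not pass with DESeq2, with DESeq2-type size factors, with unscaled library sizes and with no filter. ADR1 was at -0.34 (SE 0.24, adjusted p = 0.319), with aerial replicate 1 at 1098 CPM and all the other libraries between 642 and 728 CPM. SNF1, the kinase that relieves glucose repression, was at 0.03 (SE 0.17, adjusted p = 0.897).

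Of 9 genes for matrix import and proliferation of peroxisomes, 2 passed as higher in aerial and 1 as higher in root cells, with a median of -0.38. In lists this short, such counts, and likewise those of the isoenzymes, the further peroxisomal enzymes and the regulators, are to be read against the 15.6% and 15.9% of all loci that passed in each direction. PEX18, a co-receptor for the import signal that Pot1p carries, held 33.5, 30.3 and 43.1 CPM in the aerial and 13.4, 12.03 and 12.3 CPM in the root libraries. The groups were far apart, with a log2 fold change of -1.50 (SE 0.20, adjusted p = 0.00139, edgeR). Its paralogue PEX21 was at 0.91 (SE 0.27, adjusted p = 0.0322), higher in root cells, and PEX5, the receptor for the other import signal, at -0.62 (SE 0.19, adjusted p = 0.0370). PEX21 and PEX5 both no longer passed when aerial replicate 3 or any of the root replicates was left out. PEX21 also did not pass without aerial replicate 1. With unscaled library sizes the adjusted p was 0.0680 for PEX5 and 0.0773 for PEX21, and with no filter it was 0.0515 for PEX5. PEX11, needed for the proliferation of peroxisomes, was at 291, 95.1 and 267 CPM in the aerial and at 137, 104 and 113 CPM in the root libraries. Aerial replicate 2 was the lowest of all 6 libraries there, as it was the lowest aerial library for SPS19 and TES1, and the log2 fold change of PEX11 was -0.88 (SE 0.37, adjusted p = 0.1004). Without aerial replicate 2 it was -1.24 (adjusted p = 0.00106), and PEX11 also passed with DESeq2 (adjusted p = 0.0496).

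Genes of the glyoxylate cycle, of the carnitine shuttle into mitochondria and of acetyl-CoA synthesis formed another list. Of these 9 genes 7 passed as higher in root cells and were called at 2-fold, against 10.8% of all loci called higher in root cells, 0 passed as higher in aerial cells and the median was 1.25. MLS1, malate synthase of the glyoxylate cycle, was at 2.44 (SE 0.31, adjusted p = 0.00119, edgeR), CIT2, the peroxisomal citrate synthase, at 2.02 (SE 0.27, adjusted p = 0.00139) and ICL1, isocitrate lyase, at 1.25 (SE 0.30, adjusted p = 0.0134, and 0.0642 without root replicate 1). CIT2 had 752, 485 and 530 CPM in the aerial and 2688, 2051 and 2432 CPM in the root libraries. Peroxisomal CIT2 and the peroxisomal oxidation genes thus stood higher in different cell types. CRC1, the mitochondrial carrier of acetyl-carnitine, rose in root cells by 2.13 (SE 0.23, adjusted p = 0.000761), and the carnitine acetyltransferase genes YAT1 and YAT2 by 1.16 and 1.14 (adjusted p = 0.0195 and 0.00992). The call of YAT1 was lost without aerial replicate 3, root replicate 1 or root replicate 3. ACS2, acetyl-CoA synthetase, was at 1.52 (SE 0.23, adjusted p = 0.00199). Its paralogue ACS1 was at -0.87 (SE 0.38, adjusted p = 0.109). ACS1 passed with DESeq2 (adjusted p = 0.0253) and without aerial replicate 2 (adjusted p = 0.0156), and over all alternatives its adjusted p was 0.0156 to 0.294. Genes for related enzymes that stood in the list of further peroxisomal enzymes had values below 0. CAT2, a carnitine acetyltransferase, was at -0.51 (adjusted p = 0.130, and 0.0388 without aerial replicate 2). MDH3, the peroxisomal malate dehydrogenase, was at -0.70 (adjusted p = 0.0540) and passed without aerial replicate 2 (0.00754), with DESeq2 (0.0250), with unscaled library sizes (0.0339) and with upper quartile normalization (0.0498).

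**Figure D5:**
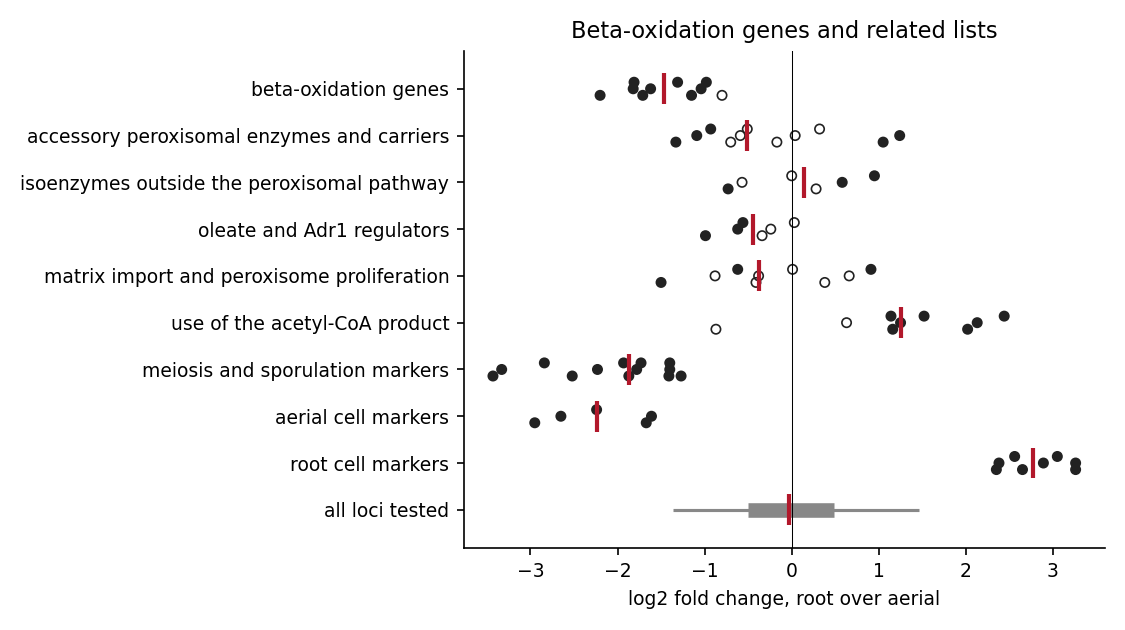
Log2 fold change of root over aerial cells for each gene of the beta-oxidation pathway and of 8 other lists, with filled points for genes that passed at an adjusted p below 0.05, open points for those that did not and a red line at the median. For all loci tested the thick bar spans the middle 50% and the thin line the middle 90%. The median is -1.47 for the beta-oxidation genes, 1.25 for the list named use of the acetyl-CoA product and -0.03 for all loci. Despite its name, that list also holds ACS1 and ACS2, genes for acetyl-CoA synthesis.

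The oleate response element was also matched upstream of 104 genes outside the 10. Of these, 103 were tested, with a median log2 fold change of 0.03. As higher in aerial cells 16 passed (15.5%), close to the 15.6% of all loci. As higher in root cells 26 passed (25.2%, against 15.9% of all loci). The 103 genes are protein-coding, whereas of the 7971 loci tested 5873 were. The larger share in root cells was thus not set against a like background. Genes with a match include CTA1, PIP2 and PEX5, which passed as higher in aerial cells. They also include CRC1, YAT1 and ACS2, which passed as higher in root cells. Among them are also CHC1, BNR1, NNT1 and SPS18, whose windows reach across a shared promoter to the element of POX1, POT1, ECI1 and SPS19. Of these neighbours, BNR1 and SPS18 are among the genes that passed as higher in aerial cells. A match in this window therefore went with either direction. PXA1, with no match, had a log2 fold change of -1.71, within the range of the genes with matches. The gene of the 10 with the lowest value, PXA2, had no Adr1 match.

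Some of the promoters are shared with a gene on the other side. SPS18, which reads away from SPS19 across 300 bases that hold the element shown above, held 44.2, 74.9 and 79.2 CPM in the aerial and 25.3, 23.1 and 34.0 CPM in the root libraries. It passed, with a log2 fold change of -1.27 (SE 0.26, adjusted p = 0.00735, edgeR). SPS18 was not low in aerial replicate 2, where SPS19 was at its lowest aerial level. BNR1, a formin gene 380 bases from POT1, passed as well (-1.08, standard error 0.21, adjusted p = 0.00540). CHC1 beside POX1 (-0.49, adjusted p = 0.177), PPT2 beside PXA1 (0.55, adjusted p = 0.1002) and NNT1 beside ECI1 (0.36, adjusted p = 0.308) did not pass.

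The protein-coding genes with a pattern over the 6 libraries most like the mean of the 10 genes were found by the root mean square distance of centred log2 CPM. GLG2, a glycogenin, was closest at 0.06, with a log2 fold change of -1.40. HFD1, a fatty aldehyde dehydrogenase, followed at 0.08 (-1.49), then GID11 at 0.12 (-1.62), YNL092W at 0.13 (-1.30) and GND2 at 0.14 (-1.41). The 10 genes themselves lay between 0.14 for POT1 and 0.48 for SPS19 from their mean, so that these 5 genes lay as close to it as POT1 or closer. The mean includes each of the 10 genes, and the distance rests on 6 libraries.

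Marker genes of the cell types had been chosen by the study, or here from its results, on these samples, so that their direction is no independent check of the labels. All 5 aerial markers passed as higher in aerial cells, from HSP26 (-2.95) to GRE1 (-1.61), with a summed level of 15547 to 29878 CPM in the aerial and 5927 to 6746 CPM in the root libraries. Without root replicate 2, and likewise without root replicate 3, 3 of the 5 passed. All 8 root markers passed as higher in root cells, from HXK2 (2.35) to GDH1 (3.26), at 999.4 to 1990 and 10061 to 11761 CPM. Meiosis and sporulation markers moved with the cell types too. All 13 passed as higher in aerial cells, from HOP1 (-3.43) to SPS18 (-1.27), against 15.6% of all loci. For 12 of them no aerial library overlapped a root library, against 23.4% of all loci. Their summed level was 5423 to 17884 CPM in the aerial and 2226 to 4027 CPM in the root libraries. Much of this sum was SPS4, the marker that overlapped. It held 2789, 13043 and 7172 CPM in aerial replicates 1, 2 and 3 and 1436 to 2860 CPM in the root libraries. None of the 13 markers was at 0 in any library. In summed CPM, aerial replicate 2 had the most of these markers and the least of the beta-oxidation genes among the aerial libraries. Aerial replicate 1 had the least of the markers and the most of the beta-oxidation genes. As a share of all counts, the beta-oxidation genes were highest in aerial replicate 3. Aerial replicates 1, 2 and 3 stood at 0.431%, 0.381% and 0.480%. The marker sum had the same order as SPS4, and not every marker had it. IME1 was at 515, 425 and 458 CPM and DMC1 at 79.7, 78.4 and 97.7 CPM in these libraries. The paper had already reported meiosis and sporulation genes as higher in aerial cells from these libraries, so this direction is no independent finding. It also states that sporulation was seen only rarely in BR-F colonies. Whether the samples held meiotic cells was not measured. Any part of such cells in the differences of the beta-oxidation genes was not tested.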

How the data were processed

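Per the paper's methods and the labels, total RNA was depleted of rRNA and sequenced as stranded paired-end libraries. The authors mapped reads with TopHat2 2.0.14 to the S. cerevisiae genome (SacCer3, R64) and assigned them to loci by strand with featureCounts. The deposited values are raw counts, 3 libraries per cell type, which the paper calls independent biological replicates. How reads matching several loci were counted is not given in the sources used here. The line of the table that names no locus was left out (at most 3.64e-05% of a library).

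The test was run with edgeR 4.0.16 (R 4.3.3): filterByExpr, TMM, quasi-likelihood F test, Benjamini-Hochberg adjustment over 7971 loci. The alternatives are given in the closing section. Of 6558 coding loci, 5917 matched R64 by name. A BLAST 2.17.0 search of R64 coding sequences found no near-identical copy of the 10 genes; the closest was IDP1 to IDP3 (67.9% over 1233 bases). Sequences are from the R64 genome of RefSeq, and no protein sequence was analysed here.

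Genes named are the 10 genes, the ends of each list, isoenzymes, regulators, promoter neighbours and the 5 most similar profiles; further list genes were named after their values were seen. The rule for the 10 genes uses locus names only, but the genes, lists and tests were chosen with earlier results of these data known.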

Additional observations from a re-analysis of the deposited data

How the results depend on the processing

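Under 14 alternatives the 10 genes gave 140 values, of which 133 kept direction and side of the threshold, 6 lost the threshold and 1 gained it. None reversed. The alternatives were DESeq2 1.42.0, its size factors in edgeR, upper quartile normalization, TMM on protein-coding loci, library sizes with no scaling, all loci with a count, a minimum of 10 counts per library, the replicate block and each library left out. Leaving out each library gave log2 fold changes of -1.26 to -0.64 for TES1, -1.15 to -0.79 for ECI1 and -1.13 to -0.52 for SPS19, and the cause was not tested. Same-numbered aerial and root libraries correlated at -0.142, 0.14 and -0.044 in their deviations from the group means. Unlike-numbered ones reached -0.3 and 0.361. With means of 3 libraries, such values cannot settle whether replicate numbers pair the libraries. With the replicate block 9 of the 10 genes passed and 8 were called, as without it, while FAA1 (adjusted p = 0.0582), FAA3 (0.0569), OAF1 (0.0936), PIP2 (0.0678) and PEX5 (0.0671) lost the threshold.

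Of 644 values for 46 other named genes 573 kept direction and threshold, 49 lost and 12 gained it, and 10 reversed, all in IDP2 and SNF1. IDP2 was at -0.06 with upper quartile normalization, -0.02 with unscaled library sizes and with TMM on protein-coding loci, -0.00 with DESeq2-type size factors and with no filter, and -0.06 to 0.09 with a library left out. SNF1 was at -0.02 with upper quartile normalization and at -0.03 to 0.10 with a library left out.

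With a library left out, genes that passed as higher in aerial cells numbered 1 to 6 of the accessory enzymes, 0 to 2 of the isoenzymes, 1 to 3 of the regulators, 1 to 3 of the import genes, 0 to 1 of the acetyl-CoA genes and 3 to 5 of the aerial markers, and those higher in root cells 1 to 2 of the isoenzymes and 0 to 3 of the import genes. Acetyl-CoA genes higher in root cells numbered 8 without aerial replicate 1. Without root replicate 1 the threshold was lost by both ICL1 (adjusted p = 0.0642, edgeR) and YAT1 (adjusted p = 0.0745, edgeR). With the replicate block the count in aerial cells was 0 for isoenzymes, 1 for regulators and 1 for import genes. In root cells it was 1 for isoenzymes and 2 for import genes. Import genes higher in root cells numbered 2 with upper quartile normalization and 0 with unscaled library sizes. Import genes higher in aerial cells numbered 1 with unscaled library sizes and 1 with no filter, which also gave 1 isoenzyme higher in root cells. With DESeq2, 1 acetyl-CoA gene (ACS1) passed as higher in aerial cells.

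Shares of summed counts, in place of counts per kilobase, gave longer genes more weight by construction and kept the direction of each difference. The share of ECI1, which overlapped between the cell types per kilobase, did not overlap on this basis. In aerial and root libraries they were 16.6% and 14.3% for POX1, 31.9% and 27.4% for FOX2, 11.81% and 14.6% for POT1, 9.98% and 13.6% for FAA2, 14.4% and 13.1% for PXA1, 6.02% and 3.84% for PXA2, 2.80% and 2.71% for IDP3, 1.57% and 2.28% for ECI1, 1.96% and 3.52% for SPS19 and 2.92% and 4.63% for TES1. A search for import signals in the proteins was planned and not run. Outliers were not looked for, since groups of 3 are too small.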
